A study of Homo sapiens with 16 samples.

Results

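GLMP, ZNF154 and TGM2 are 3 genes on different chromosomes whose RNA was low in U2OS cells carrying the MDM2 substitution W329G. They are described here with TMEM79, whose exons overlap those of GLMP, and MFSD1, which encodes the membrane partner of the GLMP protein, which makes 5 genes of the 28689 that could be joined between the count tables of 2 experiments. GLMP, ZNF154 and TGM2 were chosen for their low level in W329G libraries, so the comparison of genotypes is given for them as levels and folds, with no test. TMEM79 and MFSD1 were chosen by position and by partnership, and are tested in every comparison. All 5 genes passed the filter on low counts in every comparison, for GLMP and ZNF154 through their level in wild-type (WT) cells.

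GLMP is a heavily glycosylated protein of the lysosomal membrane that acts as an accessory subunit of MFSD1, a transporter of the lysosome, and shields it from the proteases of the lumen. ZNF154 is a zinc finger protein of the KRAB class, a family that recruits the corepressor TRIM28 to DNA, and its promoter is known for dense methylation in many tumours. TGM2, tissue transglutaminase, is a calcium-dependent enzyme that crosslinks glutamine to lysine side chains, binds fibronectin and integrins at the cell surface and is a classic target of retinoic acid. TMEM79 encodes a multi-pass membrane protein studied mostly in the epidermis.

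U2OS cells come from a human osteosarcoma and keep wild-type p53, and MDM2 is the ubiquitin ligase that restrains p53. The 4 groups were WT cells under DMSO, WT cells under 5-fluorouracil (5-FU), W329G cells under DMSO and W329G cells under 5-FU, where 5-FU is a pyrimidine analog that disturbs thymidylate synthesis and ribosomal RNA processing and was given at 50 µM for 24 h. The W329G cells were made from U2OS by CRISPR/Cas9 editing, and no label says whether a line is 1 clone. Each genotype had 2 sets of cells, numbered 1 and 2, and each was profiled by poly-A RNA-seq in 2 experiments, each with its own sequencing vendor, so that every group holds 4 of the 16 libraries. No label says whether a number names the same cells in both experiments. The tests of genotype, which add up counts per number, take it to do so, and with the numbers exchanged in experiment 2 they called 2 genes in place of 249 under DMSO and 222 in place of 2506 under 5-FU. Experiment 1 supplied replicates 1 and 2 (cells 1, then cells 2), and experiment 2 supplied replicates 3 and 4 in the same order. Since the labels do not say that the experiments used separate cultures, p-values of the 5-FU responses reflect the spread among libraries, which may be technical. Those between genotypes, and their SE, rest on 2 sums per group. They leave out the spread between the experiments, which the sums add up. Total counts ran from 24715999 to 56877328 per library. Mitochondrially encoded genes took 7.14% to 31.8% of the joined counts. Of the 10 markers of mesenchymal and bone cells, 3 were under 1 CPM, counts scaled to the library's size, in every library. So were 1 of 10 epithelial, 6 of 10 blood cell and 3 of 10 neural markers. The summed level of the 10 mesenchymal and bone markers ran from 5588 to 13907 CPM. It was 11.6 to 156.5 CPM for the epithelial, 10.2 to 135.4 CPM for the blood cell and 23.0 to 56.9 CPM for the neural markers. Of the mesenchymal and bone markers SPP1 was called higher in W329G than in WT cells under each treatment, and ALPL lower under 5-FU (edgeR). The libraries of SPP1 overlapped. Under DMSO they ran from 7.03 to 27.8 CPM in WT and from 10.4 to 64.9 CPM in W329G cells. Under 5-FU they ran from 6.84 to 45.9 CPM in WT and from 10.7 to 53.0 CPM in W329G cells. Of the other markers, KRT5, CD33 and GAD1 were called lower and SNAP25 higher in W329G than in WT cells under 5-FU (edgeR). The libraries of KRT5 overlapped, with 0.0722 to 20.8 CPM in WT and 0.0209 to 1.66 CPM in W329G cells. The part of these markers in the results was not tested.

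In the gene models of the experiment 1 tables, with the coordinates of GRCh38, GLMP lies on the minus strand of chr1:156290089-156295689 and TMEM79 on the plus strand of chr1:156282935-156293185. ZNF154 is on the minus strand of chr19:57697367-57709194, TGM2 on the minus strand of chr20:38127387-38166578 and MFSD1 on the plus strand of chr3:158732198-158829719. RefSeq (GRCh38.p14) lists a promoter for GLMP, MFSD1, ZNF154 and TMEM79. GLMP and MFSD1 are shown because their proteins work as a pair and their starts carry a like element. Each line gives 100 bases before and 20 bases after the RefSeq start, 5′ to 3′ on the gene's strand, with the longest run that they share around TCATGTG in capitals, and CACGTG also in capitals in MFSD1.
GLMP: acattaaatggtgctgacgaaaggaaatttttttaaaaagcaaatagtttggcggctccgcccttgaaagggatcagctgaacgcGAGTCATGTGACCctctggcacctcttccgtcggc
MFSD1: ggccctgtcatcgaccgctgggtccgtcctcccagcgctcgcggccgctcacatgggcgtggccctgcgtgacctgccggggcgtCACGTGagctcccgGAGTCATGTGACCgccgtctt
These lines span chr1:156295660-156295779 and chr3:158801954-158802073, where the RefSeq start of MFSD1 lies inside the longer gene model of the experiment 1 tables. The shared run contains TCATGTG, the M-box bound by basic helix-loop-helix factors of the MITF and TFEB family, which are known regulators of lysosomal genes.

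In GLMP the shared run GAGTCATGTGACC began 15 bases before the start, and in MFSD1 it began 1 base before the start, with CACGTG, the E-box core, 15 bases before the start. Both strands were searched over windows of 300 bases around 35116 RefSeq starts. TCATGTG was found in 2.92% of them, CACGTG in 7.26%, and GAGTCATGTGACC, which holds the M-box and was read off these 2 promoters, in 3 windows, those of GLMP and MFSD1 included. ZNF154 and TMEM79 held none of the 3 strings. TGM2 has no entry in the promoter table. A match describes letters only, and binding was not measured.

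The ZNF154 promoter is shown because its CpG sites are the known target of methylation. The line gives 250 bases before and 20 bases after the start (chr19:57709185-57709454), with each CpG in capitals.
ZNF154: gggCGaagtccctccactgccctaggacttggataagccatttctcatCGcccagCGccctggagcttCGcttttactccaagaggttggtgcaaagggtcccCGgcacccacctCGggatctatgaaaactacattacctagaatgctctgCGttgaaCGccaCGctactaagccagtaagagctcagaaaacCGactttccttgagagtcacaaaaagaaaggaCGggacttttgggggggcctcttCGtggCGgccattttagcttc
The 250 bases before the start held 11 CpG sites, equal to the median of 11 over the RefSeq promoters. Methylation was not measured in these cells.

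GLMP was at 13.01, 8.54, 13.6 and 8.55 CPM in the 4 WT libraries under DMSO (replicates 1 to 4, the order used throughout), and at 0.614, 0.640, 0.237 and 0.395 CPM in the W329G libraries. Under 5-FU the WT libraries held 18.5, 13.9, 12.5 and 11.3 CPM and the W329G libraries 0.683, 1.34, 0.272 and 0.460 CPM. Every W329G library was below every WT library: the lowest WT value was 13.3 times the highest W329G value under DMSO and 8.43 times under 5-FU. The group means were 10.9 ± 2.75 CPM against 0.472 ± 0.191 CPM under DMSO and 14.1 ± 3.16 CPM against 0.688 ± 0.464 CPM under 5-FU (SD, n = 4 libraries), so W329G cells held 4.32% and 4.89% of the WT level.

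These low levels rest on few reads. The W329G libraries under DMSO held 22, 18, 9 and 12 counts of GLMP, where the WT libraries held 308, 274, 746 and 299. Under 5-FU the W329G libraries held 27, 37, 11 and 22 counts and the WT libraries 437, 333, 557 and 468. A residue was thus counted in all 8 W329G libraries, and in CPM it was higher in each of the 4 from experiment 1 than in each of the 4 from experiment 2. Within experiment 1 the W329G mean under DMSO was 5.82% of the WT mean, and within experiment 2 it was 2.86%.

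ZNF154 was at 2.96, 2.34, 7.71 and 7.80 CPM in WT libraries under DMSO and at 0.0279, 0.213, 0.369 and 0.461 CPM in W329G libraries. Under 5-FU the values were 4.79, 4.23, 9.99 and 12.04 CPM in WT and 0.455, 0.253, 0.321 and 0.355 CPM in W329G. The WT libraries of experiment 2 stood above those of experiment 1 under each treatment, and all W329G libraries stood below all WT libraries. W329G cells held 5.15% of the WT mean under DMSO (0.268 ± 0.190 against 5.20 ± 2.96 CPM) and 4.46% under 5-FU (0.346 ± 0.0844 against 7.76 ± 3.85 CPM, SD, n = 4). The lowest W329G value was 1 count, whose exact 95% Poisson interval is 0.0253 to 5.57 counts and covers counting error only. The other W329G libraries under DMSO held 6, 14 and 14 counts.

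TGM2 was the most abundant of the 3, with 175.8, 131.0, 96.3 and 101.8 CPM in WT libraries under DMSO and 20.1, 24.2, 15.4 and 12.5 CPM in W329G libraries. Under 5-FU it was at 304.1, 157.8, 85.7 and 132.4 CPM in WT and at 26.3, 23.5, 11.6 and 13.4 CPM in W329G. Every W329G library was again below every WT library, at a larger share of the WT level than for GLMP or ZNF154. W329G cells held 14.3% of the WT mean under DMSO (18.1 ± 5.18 against 126.2 ± 36.4 CPM) and 11% under 5-FU (18.7 ± 7.31 against 170.0 ± 94.3 CPM, SD, n = 4). At 380 to 1040 counts in a W329G library, counting error was small beside the spread between libraries. Within experiment 1 the ratio under DMSO was 14.5% and within experiment 2 it was 14.1%.

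**Figure D1:**
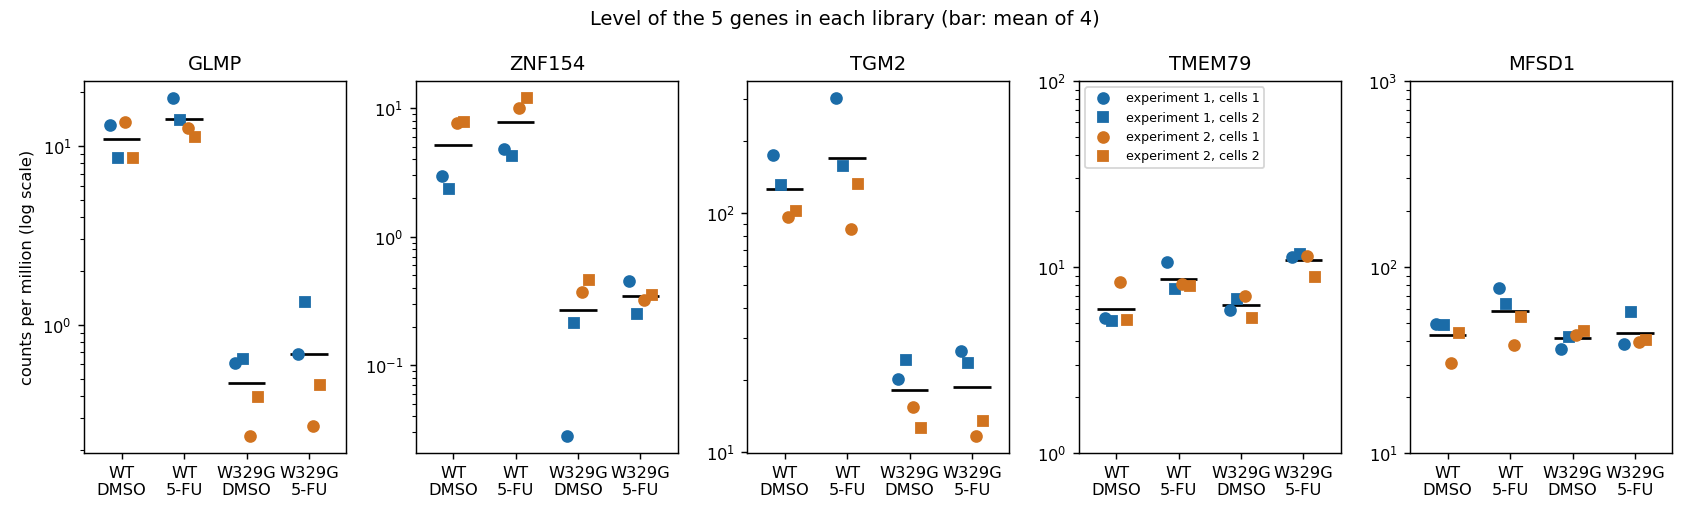
Level of GLMP, ZNF154, TGM2, TMEM79 and MFSD1 in each of the 16 libraries, in CPM on log axes that differ between panels, by genotype and treatment. Points are libraries (colour: experiment, shape: cells 1 or 2), bars are means of 4. The W329G libraries lie apart from and below the WT libraries for GLMP, ZNF154 and TGM2, and overlap with them for TMEM79 and MFSD1.

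With the counts of both experiments added up for each line, the fitted log2 fold changes of W329G against WT were -4.56 for GLMP, -4.41 for ZNF154 and -2.72 for TGM2 under DMSO. Under 5-FU they were -4.42, -4.61 and -3.07. Among 17483 genes ordered from the lowest fold change, GLMP was number 27, ZNF154 number 30 and TGM2 number 75 under DMSO, and they were numbers 41, 36 and 110 under 5-FU. Since the same contrast chose the genes, these values describe them. Over all genes tested, 1.42% were called under DMSO and 14.3% under 5-FU at an adjusted p of 0.05 (edgeR's quasi-likelihood test, Benjamini-Hochberg), and nothing is read from this for GLMP, ZNF154 and TGM2.

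TMEM79, which runs into GLMP from the opposite strand, was at 5.32, 5.14, 8.33 and 5.20 CPM in WT libraries under DMSO and at 5.86, 6.79, 7.02 and 5.34 CPM in W329G libraries. Under 5-FU it was at 10.7, 7.66, 8.12 and 7.94 CPM in WT and at 11.4, 11.8, 11.5 and 8.91 CPM in W329G. The genotypes overlapped under each treatment over both experiments. Within each experiment both W329G libraries were above both WT libraries under 5-FU, as they were under DMSO in experiment 1. The log2 fold change of W329G against WT was -0.01 ± 0.20 (SE) under DMSO (edgeR adjusted p = 0.983) and 0.35 ± 0.20 under 5-FU (edgeR adjusted p = 0.289). GLMP and TMEM79 share 607 exon bases, which is 17.5% of the exon bases of GLMP and 19.8% of those of TMEM79. Whether counting used strand is not given in the sources used here, so reads of the shared bases cannot be told apart, and what part of the residual GLMP counts they make up was not tested.

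**Figure D2:**
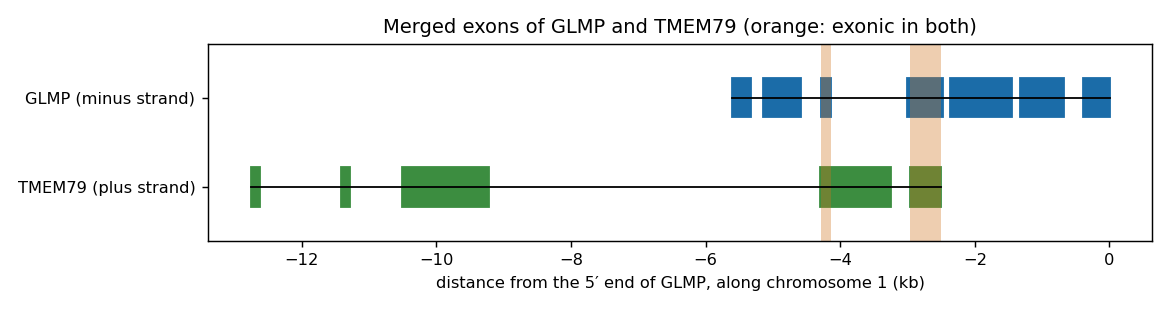
Merged exons of GLMP (blue, minus strand) and TMEM79 (green, plus strand) from the experiment 1 tables, against distance in kb from the 5′ end of GLMP. The orange bands mark the 607 bases that are exonic in both genes, in 2 pieces of 148 and 459 bases.

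MFSD1, the partner of GLMP, was at 49.3, 49.2, 30.5 and 44.3 CPM in WT libraries under DMSO and at 36.4, 42.2, 43.0 and 45.3 CPM in W329G libraries. Under 5-FU it was at 77.6, 63.5, 38.1 and 53.9 CPM in WT and at 38.7, 57.2, 39.8 and 40.5 CPM in W329G. In experiment 1 the W329G libraries were below the WT libraries under each treatment, and in experiment 2 the ranges overlapped. The log2 fold change of W329G against WT was 0.01 ± 0.15 (SE) under DMSO (edgeR adjusted p = 0.970) and -0.35 ± 0.15 under 5-FU (edgeR adjusted p = 0.157). So of TMEM79 and MFSD1, 0 of 2 were called under either treatment with edgeR, and MFSD1 alone had an unadjusted p under 0.05, 0.0446 under 5-FU. DESeq2 called 0 of the 2 under either treatment. With the line number as a replicate block on the sums, its adjusted p under 5-FU was 0.0486, although a number does not name 1 line across genotypes.

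Per length, in the libraries of experiment 1, where the tables give gene lengths, the order of the mean levels in WT cells under DMSO was TGM2, MFSD1, GLMP, TMEM79 and ZNF154. TGM2 was at 19.1 ± 3.94 CPM per kb, MFSD1 at 9.32 ± 0.0200, GLMP at 3.10 ± 0.912, TMEM79 at 1.71 ± 0.0421 and ZNF154 at 0.463 ± 0.0768 (SD, n = 2 libraries), and no neighbours in this order overlapped. In W329G cells under DMSO MFSD1 led with 7.43 ± 0.782 CPM per kb, ahead of TGM2 at 2.76 ± 0.365 and TMEM79 at 2.06 ± 0.214, with GLMP at 0.181 ± 0.00524 and ZNF154 at 0.0211 ± 0.023.

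The response to 5-FU did not choose any of the genes and was tested for all 5. For GLMP and ZNF154 in W329G cells the test rests on 1 to 37 counts a library, and changes within its errors were not detectable. None passed the threshold in WT cells, where 8.77% of 16436 genes did, in W329G cells, where 0.785% did, or in the difference of the responses, where 1.2% did (edgeR, adjusted p of 0.05). Without adjustment, 2 of the 5 had p under 0.05 in WT cells, TMEM79 and MFSD1, 1 in W329G cells, TMEM79, and 0 in the difference. DESeq2 called 0, 1 and 0 of the 5.

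TMEM79 showed the clearest response. Within pairs of libraries of the same cells and experiment, log2 CPM under 5-FU minus DMSO was 0.95, 0.80, 0.71 and 0.73 in W329G cells and 1.00, 0.57, -0.04 and 0.61 in WT cells. It was higher under 5-FU in 4 of 4 W329G pairs and in 3 of 4 WT pairs. The fitted log2 change was 0.80 ± 0.19 (SE) in W329G cells (edgeR adjusted p = 0.0702) and 0.51 ± 0.19 in WT cells (edgeR adjusted p = 0.121). With each line and experiment as a replicate block, which pairs the treatments of the same cells, it passed in each genotype, with adjusted p = 0.00532 in W329G and 0.0220 in WT cells (edgeR). The DESeq2 test without a block called it in W329G cells (adjusted p = 0.00400). Leaving out a pair of libraries changed the call in 1 of 8 fits. Without WT replicate 3, the WT pair with no rise, it passed with edgeR in WT cells (log2 change 0.74, adjusted p = 0.0299) and in W329G cells (0.80, adjusted p = 0.0409), and in the other 7 fits the adjusted p ran from 0.0960 to 0.449 in WT and from 0.0820 to 0.307 in W329G cells. The difference of the responses was 0.29 ± 0.27 (edgeR adjusted p = 0.917).

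MFSD1 was higher under 5-FU in 4 of 4 WT pairs, by 0.65, 0.37, 0.32 and 0.28 on the log2 scale, and in 2 of 4 W329G pairs, with values of 0.09, 0.44, -0.11 and -0.16. The fitted change was 0.42 ± 0.18 (SE) in WT cells (edgeR adjusted p = 0.184) and 0.06 ± 0.18 in W329G cells (edgeR adjusted p = 0.939). With the replicate block MFSD1 passed in WT cells at 0.41 ± 0.11 (edgeR adjusted p = 0.0139). The difference of the responses, -0.36 ± 0.26, did not pass (edgeR adjusted p = 0.831), so the responses of the genotypes are not shown to differ.

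For GLMP the pairs gave 0.51, 0.70, -0.11 and 0.40 in WT cells and 0.14, 1.00, 0.16 and 0.19 in W329G cells, with fitted changes of 0.31 ± 0.29 (edgeR adjusted p = 0.595) and 0.49 ± 0.36 (SE), of which the second is given without a p at these counts. ZNF154 was higher under 5-FU in 4 of 4 WT pairs, by 0.37 to 0.84, with a fitted change of 0.62 ± 0.34 (edgeR adjusted p = 0.317). Its W329G pairs spread from -0.33 to 2.60, where the highest compares 18 counts with 1. TGM2 gave 0.79, 0.27, -0.17 and 0.38 in WT pairs, with a fitted change of 0.37 ± 0.19 (edgeR adjusted p = 0.298), and 0.39, -0.04, -0.41 and 0.10 in W329G pairs, with 0.01 ± 0.20 (edgeR adjusted p = 0.996). With the replicate block the changes in WT cells were 0.37 ± 0.15 for GLMP, 0.62 ± 0.25 for ZNF154 and 0.32 ± 0.14 for TGM2. None of these passed (edgeR adjusted p = 0.0942, 0.0918 and 0.120). The spread of the W329G pairs of GLMP and ZNF154 goes with counts of 1 to 37 per library. The differences of responses were 0.17 ± 0.46 for GLMP and -0.04 ± 0.69 for ZNF154 (SE), too imprecise to read, and -0.36 ± 0.28 for TGM2 (edgeR adjusted p = 0.858).

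**Figure D3:**
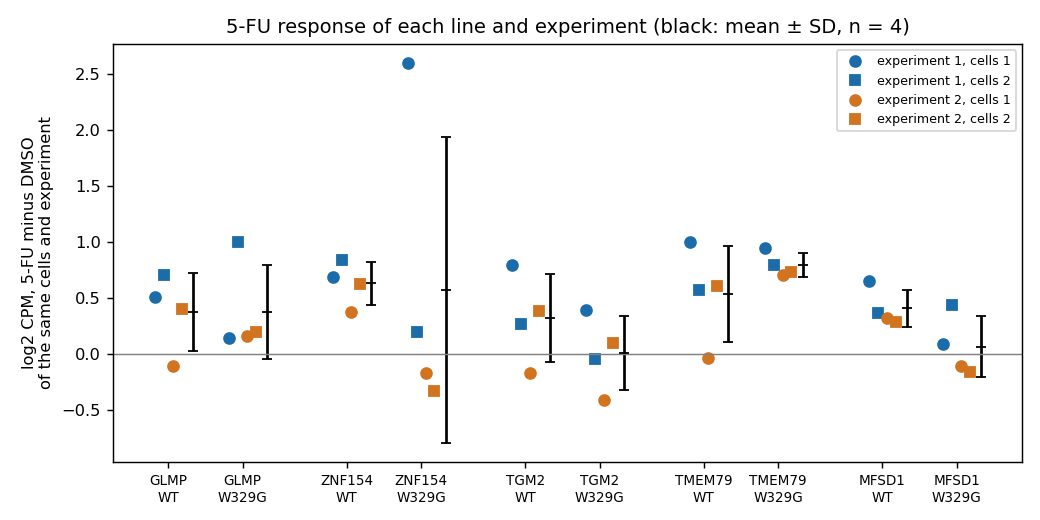
Response to 5-FU of the 5 genes in each line and experiment, as log2 CPM under 5-FU minus log2 CPM under DMSO of the same cells (points, colour: experiment, shape: cells 1 or 2), with mean and SD of 4 in black. TMEM79 in W329G cells lies between 0.71 and 0.95 in all 4 pairs, and ZNF154 in W329G cells spreads from -0.33 to 2.60.

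The genes around the 3 low genes were counted in the same contrast. Under DMSO, 0 of 19 tested genes with a body within 250 kb of GLMP, 0 of 23 near ZNF154 and 0 of 5 near TGM2 were called (edgeR). Over all genes only 1.42% were called under DMSO, so nothing is read from these counts. The median log2 fold changes of the neighbours were -0.18, -0.11 and -0.28, against 0.00 over all genes. Fold changes were negative for 15, 19 and 5 of the neighbours and positive for 4, 4 and 0. Under 5-FU the medians were -0.07, -0.22 and 0.11, against -0.01 over all genes. There 10, 19 and 2 were negative and 9, 4 and 3 positive. Under DMSO, without adjustment, 2, 1 and 1 of the neighbours had p under 0.05, and DESeq2 called 1, 1 and 0. ZNF551, whose body encloses ZNF154 on the opposite strand with no exon in common, was at 19.8 ± 2.25 CPM in WT and 18.5 ± 5.94 CPM in W329G libraries under DMSO (SD, n = 4). RPRD1B, a regulator of RNA polymerase II whose end shares 394 exon bases with the end of TGM2 on the opposite strand, was at 43.7 ± 6.05 and 40.4 ± 6.45 CPM.

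Under 5-FU, 1 of 19, 3 of 23 and 1 of 5 of these neighbours were called, all lower in W329G, where 14.3% of all genes were called and 7.09% called lower. Against that background nothing is read from the counts, and the genes named describe the surroundings. Near GLMP this was LMNA, which encodes the nuclear lamins A and C, with a log2 fold change of -0.49 ± 0.10 (edgeR adjusted p = 0.0167). Near TGM2 it was KIAA1755, with -1.98 ± 0.34 (edgeR adjusted p = 0.00672) at mean levels of 3.26 CPM in WT and 0.719 CPM in W329G, where the lowest WT library (0.585 CPM) was below the highest W329G library (1.30 CPM). Near ZNF154 it was ZNF419, ZNF211 and ZSCAN4. The libraries of LMNA, ZNF419 and ZNF211 overlapped between the genotypes under 5-FU.

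ZSCAN4, a gene known for its activity in early embryos, begins 40.3 kb from ZNF154 and had the lowest fold change of the tested genes around it. It rose with 5-FU in WT cells, by 2.86 ± 0.66 on the log2 scale (edgeR adjusted p = 0.0122), from 0.327 to 0.514 CPM under DMSO to 1.19 to 4.28 CPM under 5-FU. In W329G libraries it stood at 0.0279 to 0.132 CPM under DMSO and at 0 to 0.568 CPM under 5-FU. W329G against WT gave -2.23 ± 0.47 under DMSO (edgeR adjusted p = 0.0604) and -3.42 ± 0.40 under 5-FU (edgeR adjusted p = 0.00139). ZNF211 and ZNF419, which like ZNF154 encode zinc finger proteins, gave -0.75 ± 0.17 and -0.67 ± 0.15 under 5-FU. Near GLMP, UBQLN4, MEX3A and CCT3 fell with 5-FU in WT cells (-0.50, -0.45 and -0.39), and SMG5 rose in W329G cells (0.54 ± 0.11), all by edgeR.

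**Figure D4:**
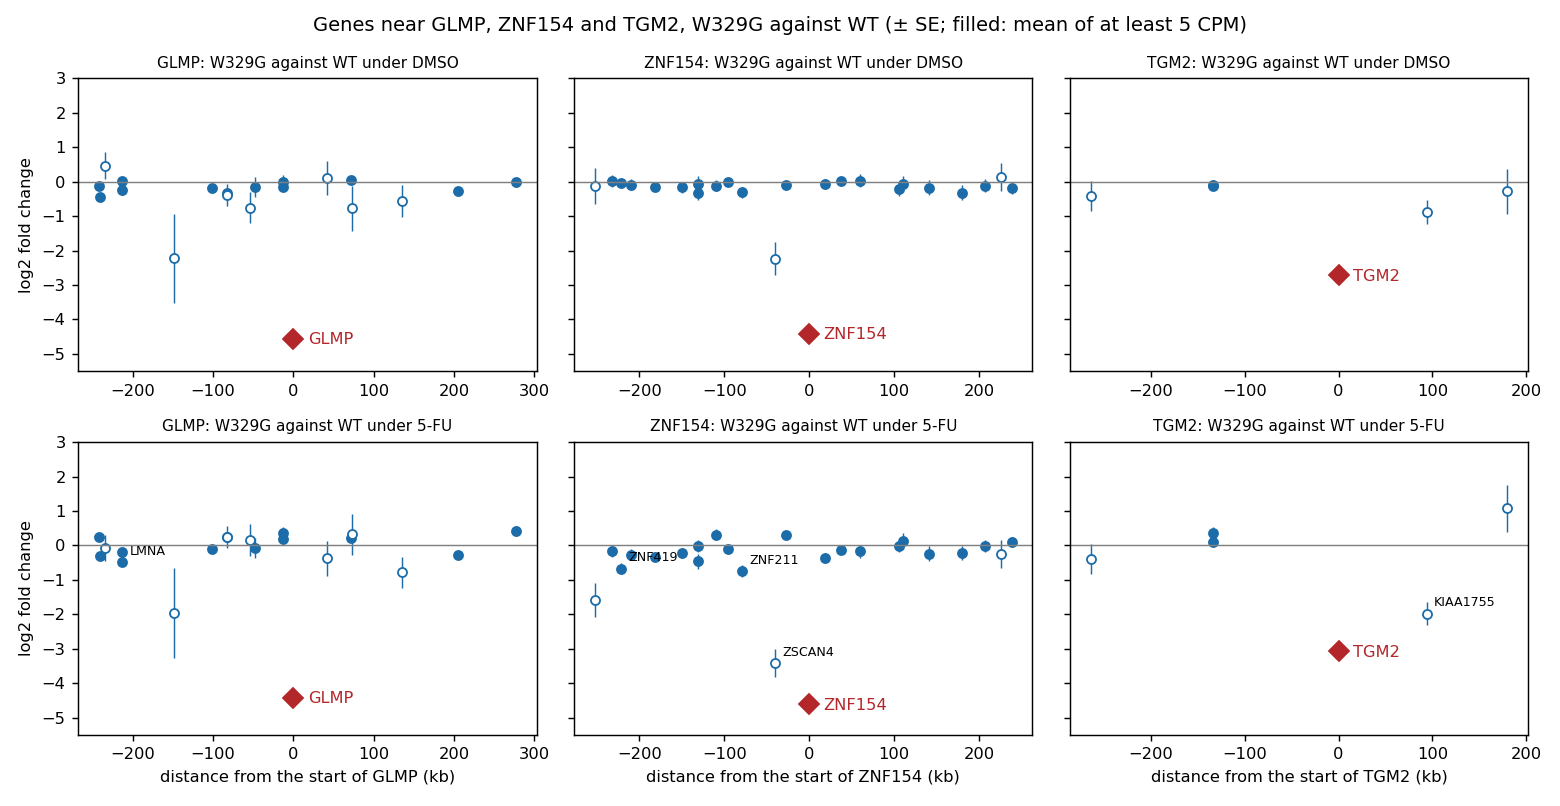
Log2 fold change of W329G against WT (vertical axis, ± SE) for genes with a body within 250 kb of GLMP, ZNF154 or TGM2, against the distance between starts in kb, under DMSO (top) and 5-FU (bottom). The red diamonds are GLMP, ZNF154 and TGM2, filled circles are genes with a mean of at least 5 CPM, and names mark neighbours past an adjusted p of 0.05. Under DMSO no neighbour is named.

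The genes whose level over the 16 libraries was most like that of GLMP, ZNF154 or TGM2 were sought among 11336 genes with a mean of at least 5 CPM, by Pearson's r of log2 CPM after the mean of each experiment was subtracted. GLMP and TGM2 were each other's closest match (r = 0.976), and TGM2 and GLMP were the closest to ZNF154 (r = 0.973 and 0.971). The other genes among the 5 closest were NAXD, PRAG1, TM9SF2, ARHGEF7 and CPPED1, with r between 0.928 and 0.966. The choice rests on the measure, since by Spearman's rank correlation 0 of the 5 closest genes were shared with these for each of GLMP, ZNF154 and TGM2. These libraries share lines and fall into 2 clusters by genotype, so r mainly reports that split, and no p is given. Within the 8 WT libraries GLMP and ZNF154 had an r of 0.760 and GLMP and TGM2 of 0.506, and within the 8 W329G libraries they had 0.346 and -0.03. ZNF154 and TGM2 had 0.650 in WT and 0.660 in W329G libraries. Of the W329G libraries, DMSO replicate 1, with 1 count of ZNF154, was the lowest for both genes on this scale (-3.46 and -1.70). The r without it was not computed. Values of r within a genotype mix treatments and lines, and in W329G libraries those of GLMP and ZNF154 rest on few counts. TMEM79 had an r of -0.16 with GLMP over the 16 libraries, but of 0.807 within WT and 0.332 within W329G libraries. MFSD1 had 0.36 over the 16 libraries, -0.03 within WT and 0.25 within W329G libraries.

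All 5 of those other genes were lower in each W329G library than in each WT library, to a lesser depth than GLMP, ZNF154 and TGM2. Their choice by r with genes that split by genotype favours such a separation, so it is no added support. NAXD, which encodes a repair enzyme for damaged NADH, went from 21.9 ± 4.13 CPM in WT to 12.6 ± 2.59 CPM in W329G cells under DMSO. PRAG1, a pseudokinase gene, went from 49.2 ± 9.95 to 18.5 ± 4.06 CPM. TM9SF2, a membrane protein of the secretory pathway, went from 147.4 ± 19.0 to 88.5 ± 19.9 CPM. ARHGEF7, a guanine nucleotide exchange factor, went from 40.3 ± 3.27 to 21.3 ± 3.30 CPM, and the phosphatase gene CPPED1 from 18.8 ± 1.47 to 11.8 ± 0.418 CPM (SD, n = 4 libraries).

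**Figure D5:**
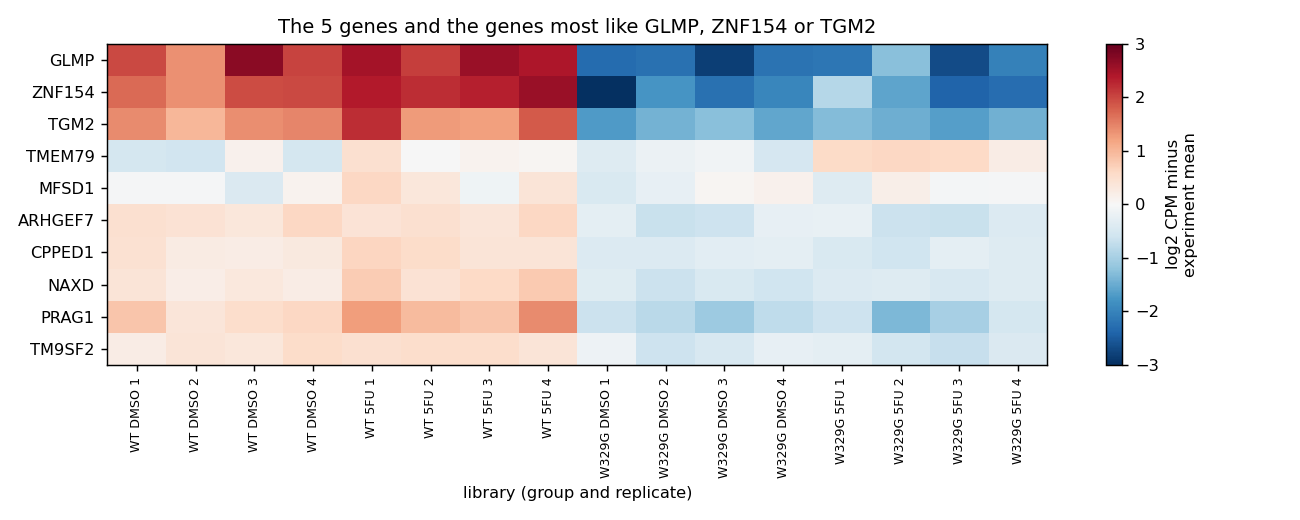
Heat map of log2 CPM minus the mean of its experiment for the 5 genes (top 5 lines) and the 5 other genes most like GLMP, ZNF154 or TGM2 by Pearson's r, in each of the 16 libraries (columns, by group and replicate). The first 8 columns, all WT, are red and the last 8, all W329G, are blue for GLMP, ZNF154 and TGM2, and more faintly for the other 5, while TMEM79 and MFSD1 show no such split.

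GLMP and MFSD1 belong to the lysosome. Over all genes tested, 7.25% were called higher and 7.09% lower in W329G than in WT under 5-FU, and 0.452% higher and 0.972% lower under DMSO. With 5-FU 3.56% rose and 5.21% fell in WT cells, 0.195% rose and 0.59% fell in W329G cells, and the response differed upward for 0.694% and downward for 0.511%. These shares are from the main edgeR fit, and the replicate block and DESeq2 called more genes. Over all genes the block gave 1911 risen and 2155 fallen in WT cells, against 585 and 857. In W329G cells it gave 843 and 951, against 32 and 97. Between genotypes DESeq2 called 1691 higher and 1655 lower under 5-FU, against 1267 and 1239. Under DMSO it called 527 and 753, against 79 and 170. List counts from these 2 fits are to be set against these totals. Of 34 other lysosomal membrane genes, 0 were called between the genotypes under DMSO (edgeR), with a median log2 fold change of -0.12 against 0.00 over all genes. Without adjustment 6 of the 34 had p under 0.05, and DESeq2 called 1 higher and 1 lower. Under 5-FU 0 were higher and 5 were lower in W329G, with a median of -0.15 against -0.01. These were ABCB9, a peptide transporter of the lysosome (-2.18 ± 0.19), LAMP1 (-0.59 ± 0.12) and CD63 (-0.61 ± 0.13), abundant glycoproteins of the lysosomal membrane, and ATP6V0D1 (-0.63 ± 0.14) and ATP6V1H (-0.56 ± 0.12), subunits of the proton pump. The libraries of ABCB9, CD63 and ATP6V1H overlapped between the genotypes, and those of LAMP1 and ATP6V0D1 did not. In WT cells 3 rose and 1 fell with 5-FU: the amino acid transporter gene SLC36A1 (0.50 ± 0.13), ABCB9 (1.12 ± 0.33), SIDT2 (0.44 ± 0.13) and, downward, HGSNAT (-0.74 ± 0.21), an enzyme of heparan sulfate breakdown. HGSNAT also fell in W329G cells (-1.20 ± 0.21), as the only called gene of the list there. With the replicate block the counts were 7 risen and 1 fallen in WT cells and 3 and 3 in W329G cells.

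Lysosomal hydrolases gave a like count. Of 35, 0 were called between the genotypes under DMSO (edgeR), and under 5-FU 5 were lower and 0 higher, with a median of -0.34. Under DMSO 2 of the 35 had an unadjusted p under 0.05, and DESeq2 called 1, and under 5-FU DESeq2 called 10, all lower. FUCA1, the lysosomal fucosidase and a known p53 target, went furthest (-2.06 ± 0.18), and NEU1, CTSB and NAGLU lay between -0.74 and -0.60. The libraries of NEU1, CTSB and NAGLU overlapped between the genotypes, and those of FUCA1 did not. FUCA1 rose in WT cells (0.98 ± 0.21) together with the sulfamidase gene SGSH (0.97 ± 0.19), where the replicate block gave 9 risen hydrolase genes, and the difference of the FUCA1 responses passed its own test (-1.34 ± 0.30, edgeR adjusted p = 0.0412). Of 8 genes of the MiT/TFE factors and their regulators, which drive lysosomal transcription, 0 were called under DMSO and 1 under 5-FU, FNIP1 (-0.53 ± 0.10). Under DMSO 1 of the 8 had an unadjusted p under 0.05 and DESeq2 called 0.

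Around TGM2, 3 of the 8 other transglutaminase family genes passed the filter, and F13A1, the A subunit of coagulation factor XIII, was called lower under 5-FU. Its libraries under 5-FU ran from 0 to 14.8 CPM in WT and from 0 to 0.188 CPM in W329G cells, so the groups overlapped. Of 11 matrix and surface partners of TGM2, 1 was called lower in W329G under DMSO, the integrin gene ITGB3 (-0.98 ± 0.14). Under 5-FU 3 were lower: ITGB3 (-1.90 ± 0.14), the syndecan gene SDC4 (-0.68 ± 0.11) and FN1, fibronectin (-0.89 ± 0.16). The libraries of ITGB3 overlapped, with 7.08 to 38.2 CPM in WT and 6.44 to 9.74 CPM in W329G cells under DMSO and 2.61 to 33.9 against 2.68 to 5.96 CPM under 5-FU. SDC4 rose with 5-FU in WT cells (0.92 ± 0.23, edgeR), the only gene of this list to do so, against 3 with the replicate block. FN1 was at 1788 ± 847 CPM in WT and 904.0 ± 177.6 CPM in W329G cells under 5-FU (SD, n = 4). The libraries of SDC4 and FN1 overlapped between the genotypes under 5-FU. Of 15 retinoid signalling genes 0 were called under DMSO (edgeR), where 2 had an unadjusted p under 0.05 and DESeq2 called 1, and under 5-FU 2 were higher, CRABP2 (1.04 ± 0.25) and RXRA (0.58 ± 0.16). The libraries of CRABP2 and RXRA overlapped between the genotypes under 5-FU.

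For ZNF154, genes of the corepressor machinery of KRAB zinc finger proteins and of DNA methylation were counted. Of 9 corepressor genes 0 were called under DMSO (edgeR), where 4 had an unadjusted p under 0.05 and DESeq2 called 2, and 4 were higher in W329G under 5-FU: the deacetylase genes HDAC1 (0.59 ± 0.11) and HDAC2 (0.58 ± 0.14), the remodeller gene CHD4 (0.39 ± 0.10) and CBX5 (0.48 ± 0.13), which encodes heterochromatin protein HP1 alpha. CBX1, a gene of the same protein family, fell with 5-FU in WT cells (-0.45 ± 0.13), and with the replicate block 4 of the 9 fell. The libraries of HDAC1 and CHD4 overlapped between the genotypes under 5-FU, and those of HDAC2 and CBX5 did not. Of 7 DNA methylation genes, among them the maintenance methyltransferase DNMT1 and its partner UHRF1, 0 were called under DMSO (edgeR), where 1 had an unadjusted p under 0.05 and DESeq2 called 0. With 5-FU, DNMT1 fell in WT cells from 191.9 ± 29.8 to 102.5 ± 23.9 CPM, and DNMT3B (-0.95 ± 0.19) and UHRF1 (-0.81 ± 0.15) fell as well. Under 5-FU these 3 were higher in W329G than in WT cells, by 0.71 ± 0.12, 1.18 ± 0.11 and 0.72 ± 0.12. The libraries of UHRF1 overlapped between the genotypes there, and those of DNMT1 and DNMT3B did not. The responses of DNMT1 and UHRF1 differed between the genotypes by 0.89 ± 0.15 and 0.96 ± 0.21 (edgeR adjusted p = 0.00648 and 0.0319). No list is called particular from these counts, since the share of all genes called was 14.3% under 5-FU and 1.42% under DMSO.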

How the data were processed

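Poly-A RNA was sequenced in 16 libraries, 4 for each genotype and treatment. The authors deposited raw read counts, 1 table per library: per the file headers, Ensembl genes with exon coordinates and length in experiment 1 and gene symbols in experiment 2. For the aligner, counter and strand setting nothing is given in the sources used here. Per the submitters' processing notes the build was hg19, but 96.3% of 56898 genes had the start and end of GENCODE on GRCh38. The tables were joined by symbol (28689 genes, 97.9% to 98.9% of counts). Experiment 2 values of 7 digits all end in 0 (26 of 26), so large counts appear rounded.

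Tests used edgeR 4.0.16 in R 4.3.3 (quasi-likelihood F test, TMM, filterByExpr, adjusted p of 0.05): 16 libraries with an experiment term for 5-FU responses, and 8 sums for genotypes. Each sum added both experiments for 1 line number, genotype and treatment. The script was tested on simulated data. Counts of 1 mean little: intervals cover counting error. DMSO and 5-FU libraries of the same cells pair (correlation of line differences across genes 0.487 to 0.708). Alternatives were DESeq2 1.42.0, other filters and scaling, each experiment alone, exchanged line numbers and left-out replicates. Members and gene lists were chosen with earlier results of these data known. Genes named are the members, the 5 most like each low gene, and at most 4 called genes of smallest p per list and comparison, to which ATP6V1H and NAGLU were added after their values were seen. Results of some list genes are not reported here.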

Additional observations from a re-analysis of the deposited data

Results flagged for a closer look

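TMEM79 gave 3 libraries that stood apart from the other 3 of their group by more than Dixon's 95% limit: WT DMSO replicate 3 was high (8.33 CPM), WT 5-FU replicate 1 was high (10.7 CPM) and W329G 5-FU replicate 4 was low (8.91 CPM). MFSD1 gave 1, W329G 5-FU replicate 2, which was high (57.2 CPM). Chance flags about 1 in 20 groups, and 20 groups were looked at. GLMP, ZNF154 and TGM2 gave none.

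The response to 5-FU differed between the genotypes for 3 genes of the lists, 1 of 35 lysosomal hydrolases and 2 of 7 DNA methylation genes. No other list gave one. Over all 16436 genes tested 1.2% differed (edgeR, adjusted p of 0.05), and the lists were chosen with earlier results of these data known. Nothing is therefore read from the count. W329G minus WT was -1.34 on the log2 scale for FUCA1, 0.89 for DNMT1 and 0.96 for UHRF1. From DMSO to 5-FU, FUCA1 went from 18.1 to 37.3 CPM in WT cells and from 10.8 to 8.42 CPM in W329G cells. UHRF1 went from 128.2 to 76.5 CPM in WT cells and from 117.5 to 134.3 CPM in W329G cells. The difference did not pass for TMEM79, MFSD1 or TGM2, and for GLMP and ZNF154 it was too imprecise to read.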

How the results depend on the processing

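The 540 values under alternatives include counts and levels, which have no direction. No tested member was called in the main fits, so few values could reverse a called direction. That none did therefore says little. For GLMP, ZNF154 and TGM2 the log2 fold change of W329G against WT stayed between -5.14 and -2.69 in every alternative. In experiment 1 alone GLMP moved to -4.08 under DMSO and ZNF154 to -3.62 under 5-FU, and in experiment 2 alone GLMP moved to -5.14 and -5.02. The counts of genes called moved far more. With the replicate block, which for the responses pairs treatments of the same cells, edgeR called 4066 genes in WT (2 members), 1794 in W329G (1 member) and 1005 in the difference. Between genotypes the replicate block was the line number on the sums, which pairs no cells, and gave 565 under DMSO. DESeq2 called 572 genes in the W329G response (1 member), 473 in the difference and 1280 under DMSO, and no filter gave 911 under DMSO. In experiment 1 alone edgeR called 205 genes in the WT response, 421 between genotypes under 5-FU, and 0 in the W329G response, the difference and the DMSO contrast (1106, 819 and 809 at an unadjusted p under 0.05). Experiment 2 alone gave 0 in the responses and their difference (1749, 880 and 638 unadjusted), 4 under DMSO and 30 under 5-FU. With counts summed per line and the numbers exchanged in experiment 2, which for the responses also replaces single libraries by sums, there were 103 genes in WT, 0 in W329G and the difference (1182 and 859 unadjusted), 2 under DMSO and 222 under 5-FU. Single libraries in place of sums gave 153 under DMSO. Leaving out a replicate gave 660 to 1389 genes in WT (0 to 1 members), 11 to 163 in W329G (0 to 1 members), 87 to 205 in the difference, 1 to 2308 under DMSO (lowest without either W329G line, highest without WT line 2) and 179 to 2960 under 5-FU (lowest without W329G line 2). A lone line was then assumed to vary like the other group. Within 100 kb, 1 neighbour of GLMP was called in the WT response in place of 3, and 0 in place of 1 between genotypes under 5-FU. By Spearman's rank correlation 0 of the 5 genes most like GLMP, ZNF154 or TGM2 were shared with those by Pearson's r. The causes were not tested. Depth limits GLMP and ZNF154 in W329G cells, at 1 to 37 counts a library.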

Other observations

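NAXD, TM9SF2 and ARHGEF7, which were among the genes most like GLMP or TGM2, lie on the distal long arm of chromosome 13, whereas GLMP, ZNF154 and TGM2 lie on chromosomes 1, 19 and 20. The genes from the start of TM9SF2 to the end of chromosome 13 were therefore described, a window chosen after values were seen, with no test. Of 34 tested genes there with a mean of at least 5 CPM, 34 had a negative log2 fold change of W329G against WT under DMSO and 31 under 5-FU, with medians of -0.53 and -0.62. Over all 11348 genes at that level the medians were 0.01 and 0.02. The 144 genes of chromosome 13 before TM9SF2 had medians of 0.08 and 0.05. What this block of lower RNA rests on was not tested, and GLMP, ZNF154 and TGM2 are not in it.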
